A study of Mus musculus with 4 samples.

Results

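The genes described here are 8 genes of the branch that runs from the kinase PDK1 through Akt to the TSC complex and mTOR, namely Pdpk1, Akt1, Akt2, Gsk3b, Tsc1, Tsc2, Rps6kb1 and Eif4ebp1, of 18193 genes named on the arrays. Their probe sets, the groups of short oligonucleotides that each give 1 intensity, were chosen by annotation to one of these symbols alone, without use of the measured values. The genes themselves were chosen with earlier results of these data known. The annotation gave 22 such probe sets for 7 of the 8 genes and none for Rps6kb1, which encodes the S6 kinase that mTOR complex 1 phosphorylates. The RNA came from cultured mouse osteoblasts, the cells that lay down bone matrix. There were 4 groups of 1 array each, an untreated control at 0 h and cultures exposed to insulin at 10 nM over 6, 12 or 24 h. All groups, the control included, shared a genotype that the growth protocol gives as lacking the IGF-1 receptor and the genotype entry as "IGF-1 null", and the sources used here do not settle which is meant. All cells were grown until confluent. Serum was withdrawn before insulin was added, and the labels do not say for how long, or whether the 0 h culture was treated alike. They give no strain, no age of the donor animals and no word on whether the cells were 1 clone, and no untreated culture was sampled at a later time among the arrays analysed here.

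Insulin binding to its receptor leads to phosphoinositide 3-kinase activity, and the lipid it makes brings PDK1 and Akt to the membrane, where PDK1 phosphorylates Akt. Active Akt phosphorylates and inhibits both GSK-3 and TSC2, and loss of TSC activity lets the small GTPase Rheb switch on mTOR complex 1, which then phosphorylates S6 kinase and 4E-BP1 and so raises cap-dependent translation. Most of this signalling is carried by phosphorylation, which an array of transcripts does not measure. The levels below are those of the mRNAs of the pathway's components.

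With a single array in each group no test between groups was possible, and no value below carries an error between cultures. Where an SD is given it is that of the 3 insulin arrays' log2 differences from the 0 h array, which mixes time with array scatter and is no replicate error. The 3 differences share the 0 h array and are not independent. Intensities are RMA values on a linear scale. The median intensity of all probe sets lay between 65.0 and 65.7 on the 4 arrays. A probe set entered the counts where its mean over the 4 arrays reached 67.8, the median of such means, and 18 of the 22 probe sets did, from all 7 genes. The nearest on either side of that value were an Akt2 probe set (1455703_at, mean 69.4) and a Tsc1 probe set (1422043_at, mean 60.9).

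The 0 h array stood apart from the insulin arrays in ways that touch every comparison with it. Xist, which coats the silenced X chromosome, had intensities of 109, 1636, 1278 and 1463 at 0, 6, 12 and 24 h, and the Y-linked gene Eif2s3y had 12.2, 295, 305 and 326. Medians of whole chromosomes, taken over log2 differences averaged across the insulin arrays, ran from -0.25 on chromosome 8 to 0.34 on chromosome 4. Of 7 osteoblast markers measured, 3 (Sp7, Alpl and Pth1r) were below the filter value at 0 h and none on the insulin arrays, and the summed intensity of the 7 was 53282 at 0 h against 78900.4 to 89509 with insulin. Col1a1, Col1a2 and Sparc made up most of that sum on every array. Ibsp, which was above the filter value on all arrays, had 202 at 0 h and 8849 to 13147 with insulin. Summed intensities of most lists of other cell types also differed, though not every marker in them. The summed intensity went from 2661 at 0 h to between 8503 and 10525 for 9 macrophage and osteoclast markers, from 1016 to between 2680 and 5449 for 4 adipocyte markers, from 839.6 to between 4294 and 6710.4 for 5 chondrocyte markers, and from 290.0 to between 5733 and 6352 for 6 muscle markers. Lyz2 and Ctsk made up most of the macrophage and osteoclast sum, and Fabp4 most of the adipocyte sum. With insulin, Col2a1 made up most of the chondrocyte sum. The muscle sum was carried by Actg2, with 30.1 at 0 h and 2723 to 3111 with insulin, and Cnn1, with 36.0 and 2612 to 2908, while Des, Myod1 and Myog were lower on all insulin arrays. Cd14 among the macrophage markers, with 370.1 at 0 h and 153 to 162 with insulin, and Pparg among the adipocyte markers, with 223 and 107 to 196, were lower as well. The 5 endothelial markers summed to between 212 and 245, and 4 of them were below the filter value on each array. The 3′ to 5′ ratio of the beta-actin control was 1.30 at 0 h and 1.26 to 1.41 with insulin, and that of the Gapdh control 0.897 and 0.964 to 1.03. The part of any of these in the differences below was not tested. In RNA from a whole culture, fewer cells of a type and less RNA per cell cannot be told apart.

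Most probe sets of the branch lay within 1.5-fold of the 0 h array, as did most of all named probe sets above the filter. Of the 18 probe sets above the filter, 1 was at least 1.5-fold higher than 0 h at all 3 insulin times (Gsk3b 1434439_at), where 15.7% of all named probe sets above the filter were, and 1 was at least 1.5-fold lower (Tsc1 1455252_at), where 11.3% were. Both shares of the members, 5.56%, were below those over all probe sets. Each is 1 of 18 probe sets, and the gap from the share over all was not tested. At 6 h, 1 of 18 was higher and 1 lower at that size, against 17.7% and 13.7% of all probe sets. At 12 h it was 1 and 2, against 18.8% and 15.5%, and at 24 h 1 and 1, against 18.1% and 15.2%. None of the 18 was 2-fold from 0 h at all 3 times, where 8.88% of all named probe sets were higher and 4.37% lower. At a lower threshold, a log2 difference of 0.32, 3 of the 18 were higher throughout and 4 were lower throughout, where the shares over all probe sets were 24.1% and 21.4%. The median log2 difference of the 18, averaged over the insulin arrays, was -0.03, beside -0.02 for all named probe sets above the filter, and the median size of the difference was 0.34 beside 0.37. By any amount, 7 of the 18 were higher and 7 lower than 0 h at all 3 times, and 4 lay on both sides of it. So 14 of the 18 lay on 1 side of the 0 h array, where 86.5% of all named probe sets above the filter did. By brightest probe sets, 5225 of 11657 genes above the filter were higher and 4959 lower at all 3 times. Of the 7 higher, Akt2 1455703_at had 64.3 at 0 h and 64.4 at 12 h, below the filter value. It passed the filter through the 6 and 24 h arrays, so its part in that count carries no weight.

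**Figure D1:**
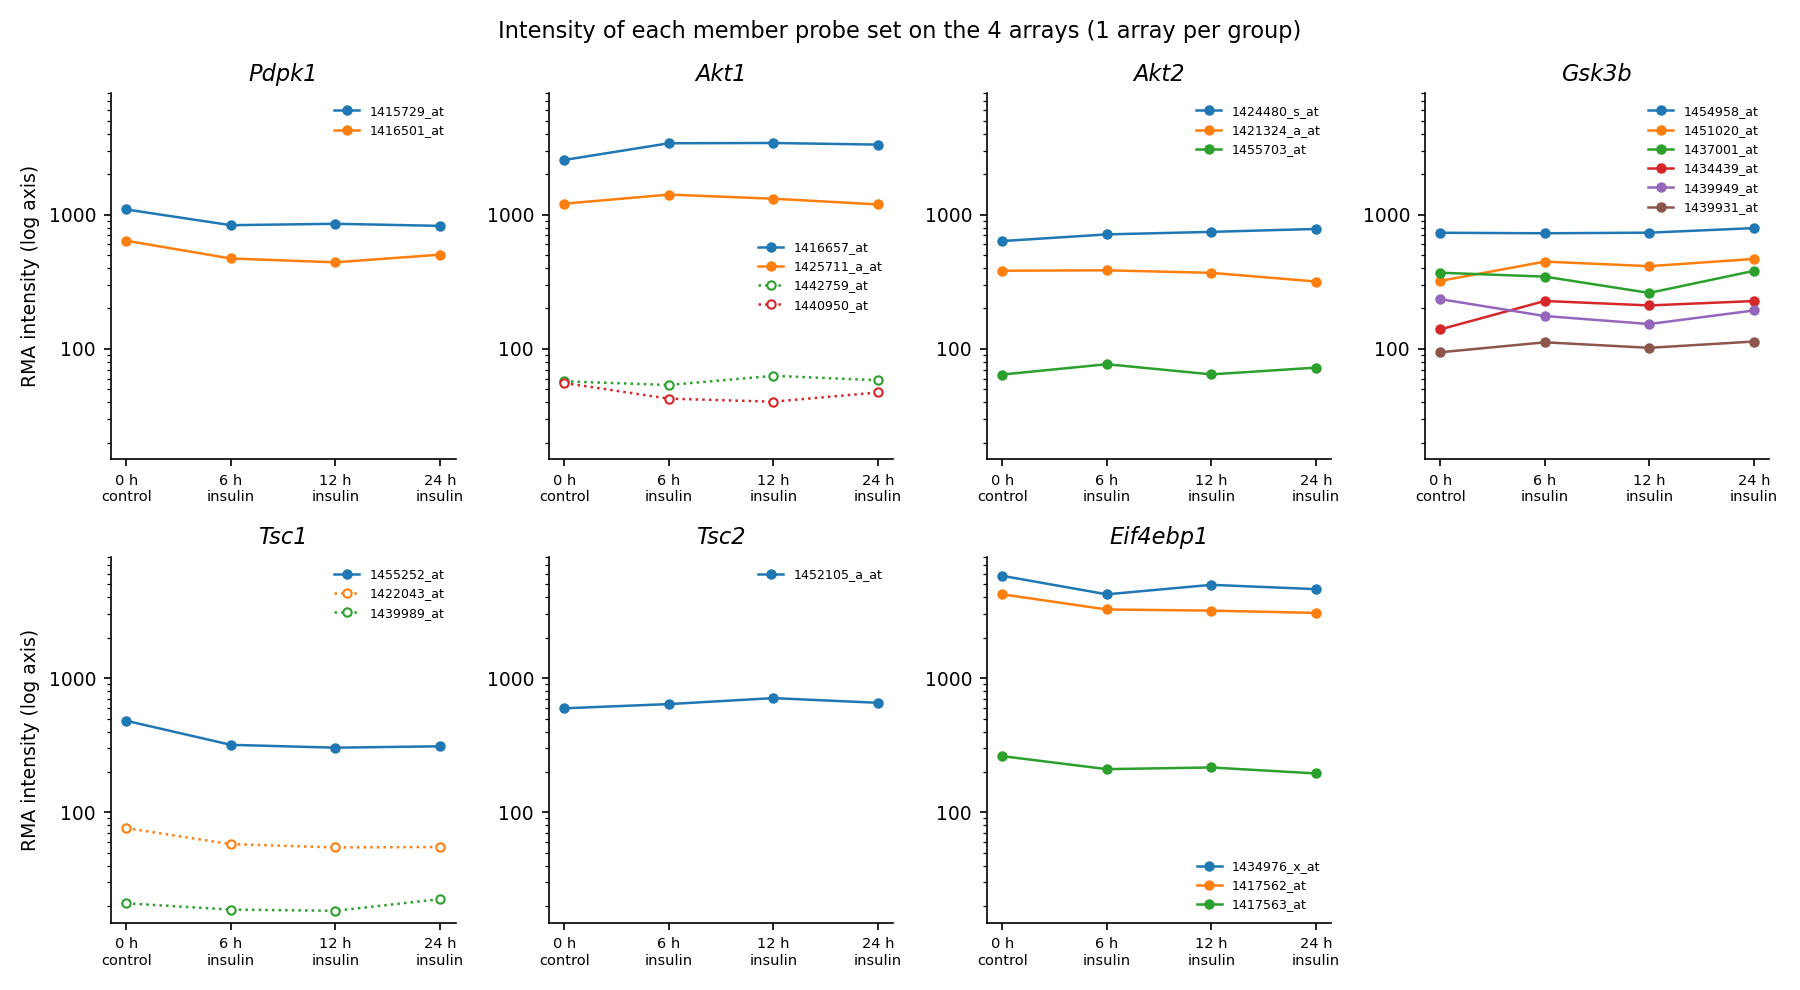
Intensity of all 22 probe sets of the 7 measured genes on the 4 arrays, with a log axis, 1 point per array and no error bars since each group has 1 array; open points with dotted lines are the 4 probe sets below the filter. Both Pdpk1 lines, all 3 Eif4ebp1 lines and the brightest Tsc1 line lie below their 0 h point at every insulin time, while the Gsk3b lines cross.

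Pdpk1 encodes PDK1, the kinase that phosphorylates the activation loop of Akt. Its brighter probe set (1415729_at) read 1093 on the 0 h array and 834, 855 and 825 on the insulin arrays in order of time, which is 1.31, 1.28 and 1.33-fold lower. The other (1416501_at) had 639, 471, 441 and 503, which is 1.36, 1.45 and 1.27-fold lower. Both probe sets thus put the 0 h array above all 3 insulin arrays, and both stayed short of 1.5-fold. Differences at least as large, averaged over the insulin arrays, were found in 48.4% and 43.1% of all named probe sets above the filter. Pdpk1 lies on chromosome 17, whose genes had a median log2 difference of -0.19, and with that median removed the brighter probe set stood at -0.20 in place of -0.38 and the other at -0.25 in place of -0.44.

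The 2 Akt genes measured here encode closely related kinases. AKT1 is known for its part in growth and survival and AKT2 for its part in glucose uptake. The brightest Akt1 probe set (1416657_at) had 2556 at 0 h and 3405, 3420.5 and 3327 at 6, 12 and 24 h. The 3 insulin arrays differed by 1.03-fold among themselves and lay 1.33, 1.34 and 1.30-fold above the 0 h array, a mean log2 difference of 0.41 with an SD of 0.021 over the 3 arrays. A second Akt1 probe set above the filter (1425711_a_at) had 1207, 1411, 1314 and 1192, so it was 1.17 and 1.09-fold higher at 6 and 12 h and 1.01-fold lower at 24 h. The remaining pair was dim, with 57.2, 53.7, 62.8 and 58.3 for 1442759_at and 55.5, 42.5, 40.3 and 47.2 for 1440950_at. The mean over all 4 Akt1 probe sets was a log2 difference of 0.05. Both probe sets above the filter had a higher mean with insulin, 0.41 and 0.11, and the lowest of the dim pair, 1440950_at, had -0.36. The median of genes on chromosome 12, where Akt1 lies, was -0.05.

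Akt2 was read by 3 probe sets, and the brighter pair went apart with time. The brightest (1424480_s_at) had 635, 712, 744 and 782 at 0, 6, 12 and 24 h, which is 1.12, 1.17 and 1.23-fold above 0 h. The next (1421324_a_at) had 382, 384, 368 and 317, which is 1.01-fold higher at 6 h, 1.04-fold lower at 12 h and lower by a log2 difference of -0.27 at 24 h. The gap between their log2 differences from 0 h was 0.15 at 6 h, 0.28 at 12 h and 0.57 at 24 h. By the maker's naming, the suffix s marks probes shared by several transcripts and the suffix a marks probes shared by variants of the same gene, so the pair need not read the same set of transcripts. The dimmest (1455703_at) had 64.3, 76.7, 64.4 and 72.3, close to the filter value. Genes on chromosome 7, which holds Akt2, had a median log2 difference of 0.22, and the brightest probe set stood at 0.23, or 0.02 with the median removed. With it removed 1421324_a_at stood at -0.32 in place of -0.10, and 1455703_at at -0.07 in place of 0.14. Between the brightest probe sets of Akt1 and Akt2 the log2 differences from 0 h were 0.25, 0.19 and 0.08 apart at the 3 times, with Akt1 the higher.

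Gsk3b encodes GSK-3 beta, a kinase that is active in unstimulated cells, inhibits glycogen synthase and marks beta-catenin for destruction, and is inhibited when Akt phosphorylates it. All 6 of its probe sets passed the filter, and they did not point one way. On 3 of them all insulin arrays were above the 0 h array. The probe set 1434439_at had 139 at 0 h and 227, 210.4 and 227 at 6, 12 and 24 h, which is 1.63, 1.51 and 1.63-fold higher. The probe set 1451020_at had 321, 447, 413 and 467, and 1439931_at had 94.2, 112, 101.6 and 113. One was lower throughout, 1439949_at with 234, 175, 153 and 193, which is 1.34, 1.53 and 1.22-fold lower. The last pair lay on both sides of 0 h, 1437001_at with 369, 345, 261 and 381 and the brightest, 1454958_at, with 733, 726, 734 and 793. Averaged over the insulin arrays, the log2 differences ran from -0.44 to 0.67, a span of 1.10 within 1 gene. The brightest probe set and 1434439_at carry the same cDNA accession in the platform annotation, and their differences from 0 h were 0.72, 0.59 and 0.59 apart on the log2 scale. The mean difference of the brightest was 0.03, and it turned to -0.02 after quantile normalization and to -0.06 with chromosome medians removed. The 1.5-fold call of 1434439_at was also lost under both of these settings, and when 32 was added to each intensity. No single direction of Gsk3b can be read from these arrays.

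The reference table lists 1 transcript start for Gsk3b. The 250 bases before it, at chr16:38088751-38089000 on the plus strand of GRCm38.p6 from RefSeq, are shown for the gene whose probe sets disagreed most, with matches to the motifs searched in capitals.
Gsk3b: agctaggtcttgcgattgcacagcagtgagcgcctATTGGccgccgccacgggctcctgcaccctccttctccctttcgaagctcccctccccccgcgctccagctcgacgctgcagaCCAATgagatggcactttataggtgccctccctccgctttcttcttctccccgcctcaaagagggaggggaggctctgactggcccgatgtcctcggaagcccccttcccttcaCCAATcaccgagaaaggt
The window held 3 matches to the CCAAT box, counted on both strands, and none to the other motifs searched. Of all 32851 such windows 33.8% held CCAAT. A match is a run of letters and no evidence of binding.

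Tsc1 and Tsc2 encode hamartin and tuberin, the subunits of the TSC complex. Tuberin carries the GTPase-activating domain that turns Rheb off, and hamartin keeps tuberin stable. The brightest Tsc1 probe set (1455252_at) had 481 at 0 h and 318, 303 and 310.3 at 6, 12 and 24 h, which is 1.51, 1.59 and 1.55-fold lower. The insulin arrays lay within 1.05-fold of each other, and the mean log2 difference from 0 h was -0.63 with an SD of 0.035 over them. A second probe set (1422043_at), just under the filter value, had 76.1, 57.9, 54.7 and 55.0, which is 1.32, 1.39 and 1.38-fold lower. The dimmest (1439989_at) had 20.9, 18.8, 18.4 and 22.5, below the filter value on every array. Differences as large as that of the brightest were found in 30.0% of all named probe sets above the filter, and genes on chromosome 2, which holds Tsc1, had a median of -0.02. The 1.5-fold call was lost when 32 was added to each intensity and when chromosome medians were removed, though the mean log2 difference stayed at -0.58 and -0.62, and the 6 h value before either was 1.51-fold. The mean over all 3 Tsc1 probe sets, the dim pair included, was -0.39.

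Tsc2 had 1 probe set (1452105_a_at), with 596 at 0 h and 640.4, 709.6 and 655 at 6, 12 and 24 h. That is 1.07, 1.19 and 1.10-fold higher, so the insulin arrays all lay above the 0 h array by a small amount. Differences at least as large were found in 74.7% of all named probe sets above the filter, and the mean log2 difference of 0.16 was close to 0.153, the SD of log2 differences between the 24 h and 12 h arrays. The partner subunits lay on opposite sides of the 0 h array, with Tsc2 above Tsc1 in its log2 difference from 0 h by 0.70, 0.92 and 0.77 at the 3 times. Tsc2 lies on chromosome 17 like Pdpk1, whose brighter probe set was lower on the same arrays. The gap between Tsc2 and Pdpk1 was 0.49, 0.61 and 0.54, and the chromosome's median of -0.19 is common to both. With it removed the Tsc2 difference was 0.35 in place of 0.16.

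The windows of 250 bases before the single listed start of each TSC gene are shown because the subunits lay on opposite sides of 0 h, Tsc2 by little. That of Tsc1 lies at chr2:28640983-28641232 on the plus strand and that of Tsc2 at chr17:24632628-24632877 on the minus strand, both from RefSeq in GRCm38.p6, with motif matches in capitals.
Tsc1: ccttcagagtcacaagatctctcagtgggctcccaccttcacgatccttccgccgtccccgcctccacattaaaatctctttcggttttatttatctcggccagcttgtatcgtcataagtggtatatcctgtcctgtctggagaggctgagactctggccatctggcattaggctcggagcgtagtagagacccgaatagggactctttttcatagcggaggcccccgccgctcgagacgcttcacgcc
Tsc2: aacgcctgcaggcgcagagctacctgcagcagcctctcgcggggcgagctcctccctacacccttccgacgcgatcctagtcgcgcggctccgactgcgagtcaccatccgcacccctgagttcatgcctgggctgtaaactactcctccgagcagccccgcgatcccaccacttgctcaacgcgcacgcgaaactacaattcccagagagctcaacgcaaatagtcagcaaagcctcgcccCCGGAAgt
The motifs searched on both strands were the GC box GGGCGG, the CCAAT box, the E-box CACGTG, the cAMP response element TGACGTCA, the forkhead motif TGTTTAC and the ETS motif CCGGAA. They were found in 32.7%, 33.8%, 6.02%, 1.55%, 3.17% and 12.0% of all windows. The Tsc2 window held 1 ETS match near its end and the Tsc1 window none of the 6, which says only that these letters are not in that stretch.

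Eif4ebp1 encodes 4E-BP1, which holds the cap-binding factor eIF4E until mTOR complex 1 phosphorylates it. All 3 of its probe sets put the 0 h array above every insulin array. On 1417562_at, tied by the annotation to the gene's RefSeq mRNA, the 0 h array read 4216 and the insulin arrays 3249, 3187 and 3063 in order of time, which is 1.30, 1.32 and 1.38-fold lower. The probe set 1417563_at, from the same mRNA, had 262, 209.6, 216 and 195, which is a log2 difference of -0.32, -0.28 and -0.43. The brightest, 1434976_x_at, had 5791, 4215, 4962 and 4607, which is 1.37, 1.17 and 1.26-fold lower. By the maker's naming, the suffix x marks probes that can also bind other sequences. The log2 differences of the 3, averaged over the insulin arrays, were -0.41, -0.34 and -0.34, and none reached 1.5-fold. Genes on chromosome 8, which holds Eif4ebp1, had a median of -0.25, the lowest of the chromosomes, and with it removed the 3 stood at -0.17, -0.10 and -0.09.

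**Figure D2:**
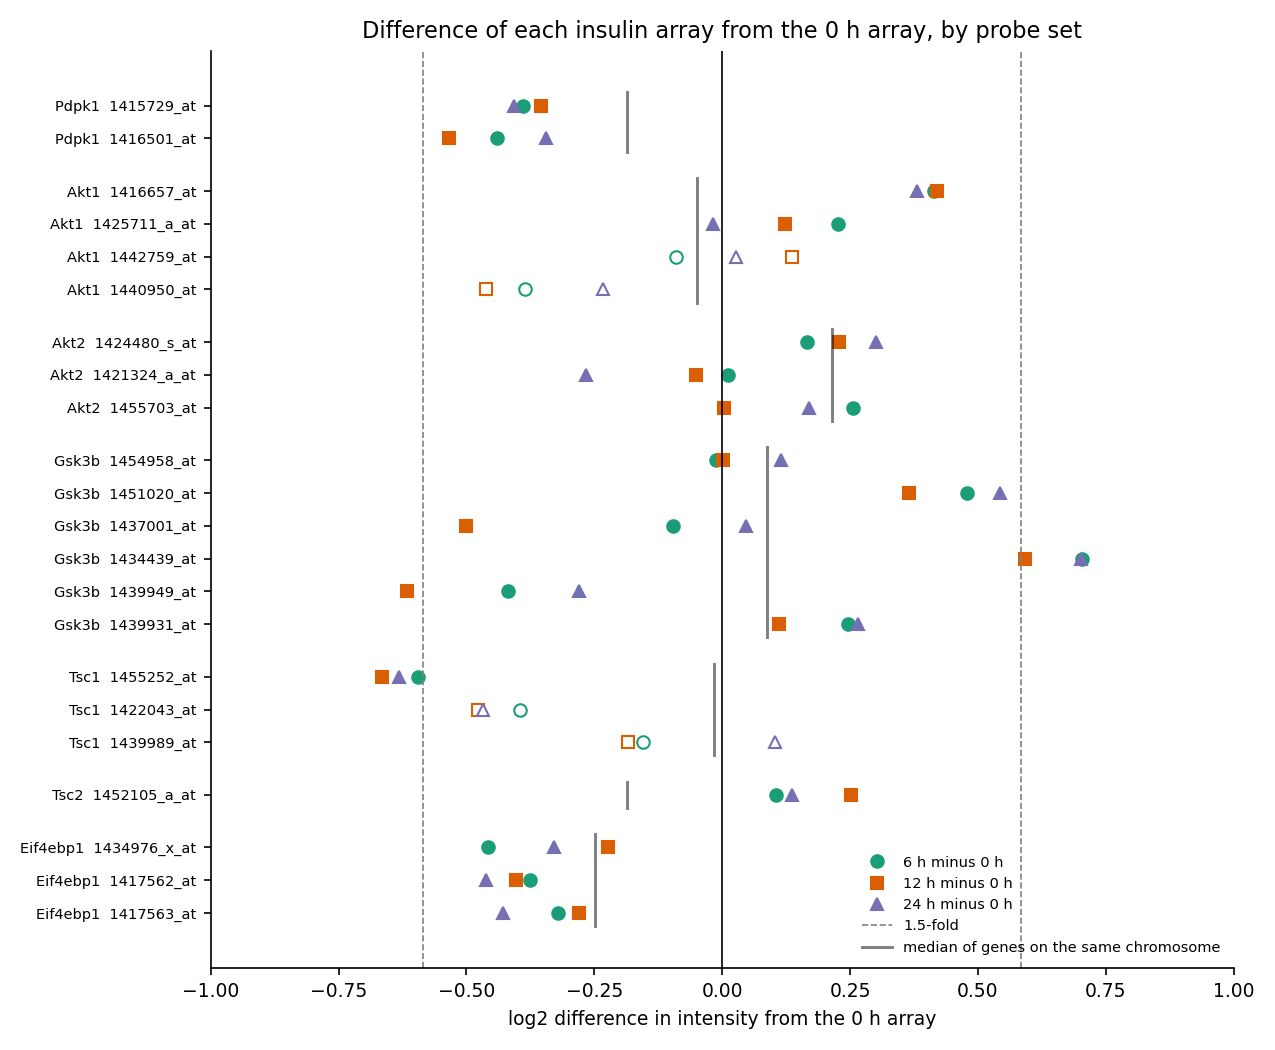
Log2 difference of each insulin array from the 0 h array for all 22 probe sets, with open symbols for those below the filter, dashed lines at 1.5-fold and a grey bar at the median of genes on the same chromosome. Tsc1 1455252_at and Gsk3b 1434439_at lie past a dashed line at all 3 times, and the Gsk3b probe sets spread from -0.44 to 0.67 on average.

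The insulin arrays were also compared with each other, which leaves the 0 h array out. None of the 18 probe sets was 1.5-fold apart between any 2 of them, where 2.74% of all named probe sets were. At a log2 difference of 0.32, 2 of 18 were apart, both of Gsk3b, against 15.6%. By pairs of arrays, 1 was apart at that size between 12 and 6 h, against 9.7% of all named probe sets, none between 24 and 6 h, against 9.35%, and 2 between 24 and 12 h, against 4.21%. The median log2 range over the 3 insulin arrays was 0.15 for the 18 and 0.17 for all named probe sets above the filter. The steadiest were the brightest probe sets of Akt1 and Pdpk1, which ranged over 1.03 and 1.04-fold, and 95.4% and 92.7% of all named probe sets ranged at least as widely.

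The widest range between insulin arrays among the 18 was that of a Gsk3b probe set, while the brightest Gsk3b probe set ranged over 1.09-fold. The probe set 1437001_at was 1.32-fold lower at 12 h than at 6 h and 1.46-fold higher at 24 h than at 12 h, a range reached by 3.57% of all named probe sets. The probe set 1439949_at was 1.15-fold lower at 12 h than at 6 h and 1.26-fold higher at 24 h than at 12 h. In 5 of the 6 Gsk3b probe sets the 12 h array was the lowest of the 3, and in the brightest it was 1.01-fold above the 6 h array. Of all named probe sets above the filter 27.7% were lowest at 12 h. The 6 share a target gene and the same 3 arrays, so they are not 6 separate observations of the 12 h culture. At 24 h, 5 of the 6 were above their 6 h value, by 1.01 to 1.10-fold, and 1434439_at read 227 on both arrays. The largest of these log2 differences, 0.14, was below 0.153, the SD of log2 differences between the 24 h and 12 h arrays. The share over all probe sets was not computed, so no rise is read from this count.

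Outside Gsk3b the order of the insulin arrays varied from gene to gene. Akt2 went up with time by 1424480_s_at, 1.10-fold from 6 to 24 h, and down by 1421324_a_at, 1.21-fold, with 12 h between in both. Ranges at least as wide were found in 62.4% and 22.0% of all named probe sets above the filter. Akt1 1425711_a_at was 1.18-fold lower at 24 h than at 6 h, while 1416657_at differed by 1.02-fold. Tsc2 was highest at 12 h, 1.11-fold above 6 h, and Tsc1 1455252_at lowest at 12 h, 1.05-fold below 6 h. The brightest Eif4ebp1 probe set was 1.18-fold higher at 12 h than at 6 h, and 1417562_at was 1.02-fold lower.

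**Figure D3:**
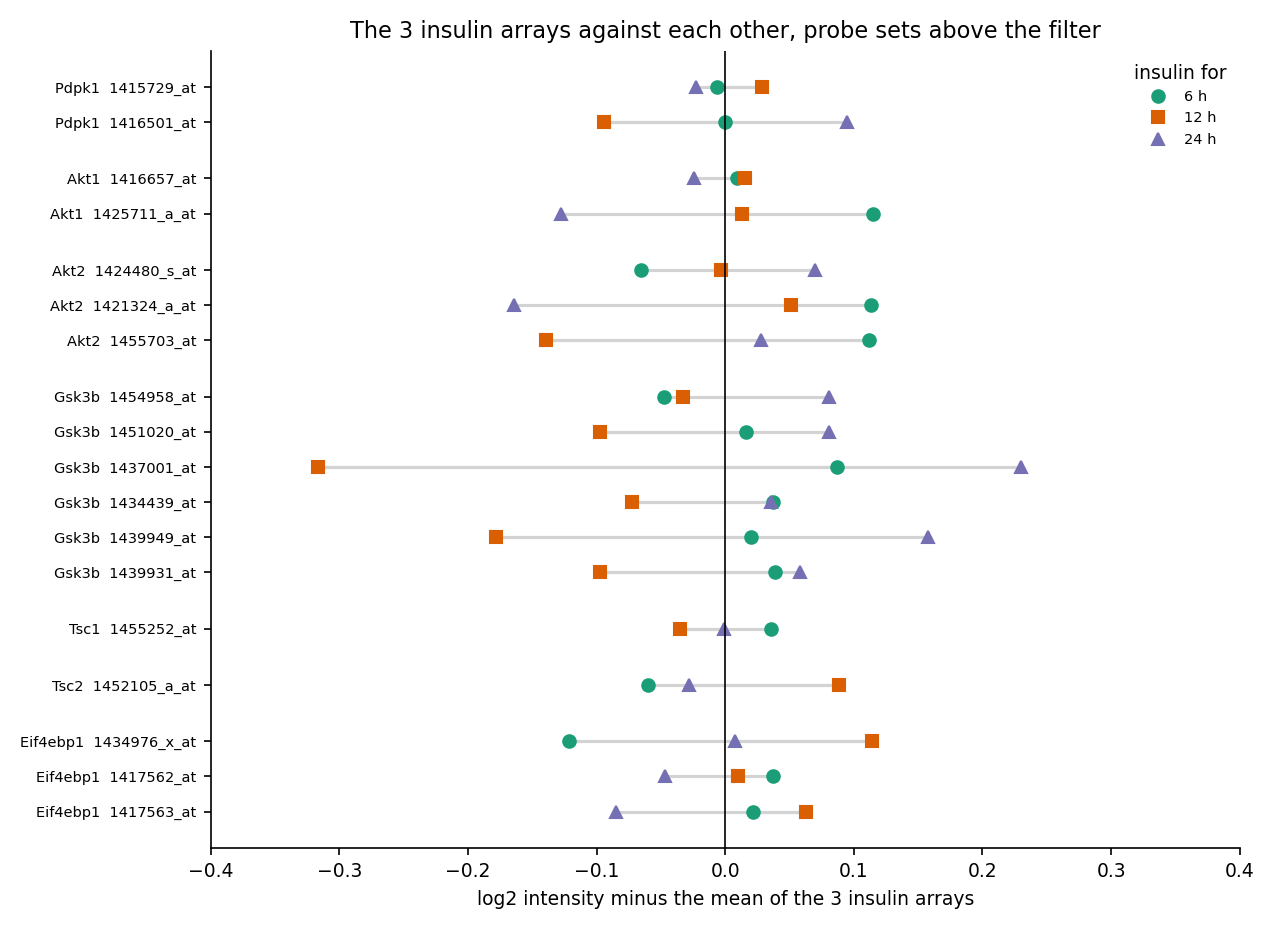
Log2 intensity on each insulin array minus the mean of the 3, for the 18 probe sets above the filter, with a grey line from the lowest to the highest array. The 12 h squares lie lowest in 5 of the 6 Gsk3b probe sets, and the Akt1 1416657_at points lie almost on top of each other.

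Other genes of the pathway were read from 6 lists with 97 symbols, of which 90 had a probe set and 84 were above the filter by their brightest one. At all 3 insulin times 12 of these 84 were at least 1.5-fold higher than 0 h, or 14.3%, against 17.3% of all genes above the filter, and 12 were at least 1.5-fold lower, against 10.7%. Their median log2 difference was -0.02, beside 0.01 for all genes. The lists were chosen with earlier results of these data known. The shares of 17.3% and 10.7% stand beside the counts of each list below, and no list was tested against them. Of the 12 higher, Rragd, Ddit4l and Prkaa2 were below the filter value at 0 h. They passed the filter through the insulin arrays, so their part in that count carries no weight. Among 11 mTOR complex genes 1 was higher and 1 lower. Mtor, the kinase itself, had 304, 468, 520.4 and 518 at 0, 6, 12 and 24 h, and Deptor, an inhibitory subunit, had 269, 91.0, 84.1 and 99.1. Rheb, the GTPase on which the TSC complex acts, had 5170.0, 5542, 5683 and 5431 and was not past 1.5-fold. It was named, like Rps6kb2 and Gsk3a below, for its tie to a member after its values were seen.

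Of 28 genes of the Rheb and amino acid inputs 3 were higher and 7 lower, where 17.3% and 10.7% of all genes above the filter were. The gap from these shares was not tested. Fnip2, a partner of folliculin at the lysosome, had 604, 171, 170.4 and 192. Its relative Fnip1 had 1065, 509.8, 474 and 564 and folliculin itself, Flcn, had 1023, 502, 548 and 486. These 2 were named after their values were seen, because the 3 proteins form complexes that act on the Rag GTPases. Rragd, one of those GTPases, had 28.1 at 0 h, below the filter value, and 113, 125 and 117 with insulin. It passed the filter through the insulin arrays, so its part in the count of 3 carries no weight. Castor1, an arginine sensor, had 488, 1363, 1412 and 1264.

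Of 9 genes of energy and stress inputs 5 were higher and none lower, where 17.3% and 10.7% of all genes above the filter were. The median log2 difference of the 9 was 0.86. Of the 5, Ddit4l and Prkaa2 were below the filter value at 0 h and passed the filter through the insulin arrays, so their part in the count and the median carries no weight. Without them the values were 1.55 for Prkag2, 1.24 for Prkab2, 0.86 for Ddit4, 0.31 for Stk11, 0.02 for Prkab1, -0.21 for Prkag1 and -0.53 for Prkaa1. The middle of these was Stk11 at 0.31. Ddit4 and Stk11 were named after their values were seen. Ddit4l, a stress-induced inhibitor of mTOR complex 1 signalling, had 55.9 at 0 h and 1148, 1406 and 1509 with insulin. Prkag2 and Prkaa2, which encode subunits of the energy sensor AMPK, had 93.4, 282, 259.5 and 278 and 33.1, 86.4, 90.3 and 88.4. The other AMPK subunits did not all lie that way. Prkab2 had 262, 595, 676 and 588, Prkab1 had 568, 592, 578 and 558, Prkag1 had 1369, 1224, 1172 and 1159.5, and Prkaa1 had 304, 202, 198 and 234, which is 1.51, 1.54 and 1.30-fold lower. These 4 were named after their values were seen. Of 15 relatives and regulators of Akt 1 was higher and 2 lower. Sgk1, a kinase related to Akt, had 2224, 868, 898 and 968, Phlpp2, a phosphatase that acts on Akt, had 370.1, 180.1, 197 and 189, and the pseudokinase gene Trib2 had 492, 851, 929 and 876.

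Downstream of mTOR complex 1, 14 further genes were measured, of which 1 was higher and 2 lower, beside 17.3% and 10.7% of all genes above the filter. Eif4e, the cap-binding factor that 4E-BP1 holds, had 4747 at 0 h and 2943, 2345 and 2243 at 6, 12 and 24 h, and Eif4b, a helicase cofactor that S6 kinase phosphorylates, had 6609, 3169, 2999.5 and 3294. Both were thus lower on the same arrays as Eif4ebp1, by more than it was. Lpin1, a phosphatidate phosphatase, had 203, 330, 390 and 357. Rps6kb2, the second S6 kinase gene and the one with a probe set here, had 344, 274, 236 and 240.0, short of 1.5-fold at all 3 times together. Of 7 genes related to GSK-3 1 was higher and none lower. This was Gys1, the glycogen synthase that GSK-3 inhibits, with 392, 886, 826 and 738. Gsk3a, which encodes the other GSK-3 kinase, had 869, 977, 1097 and 972.

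**Figure D4:**
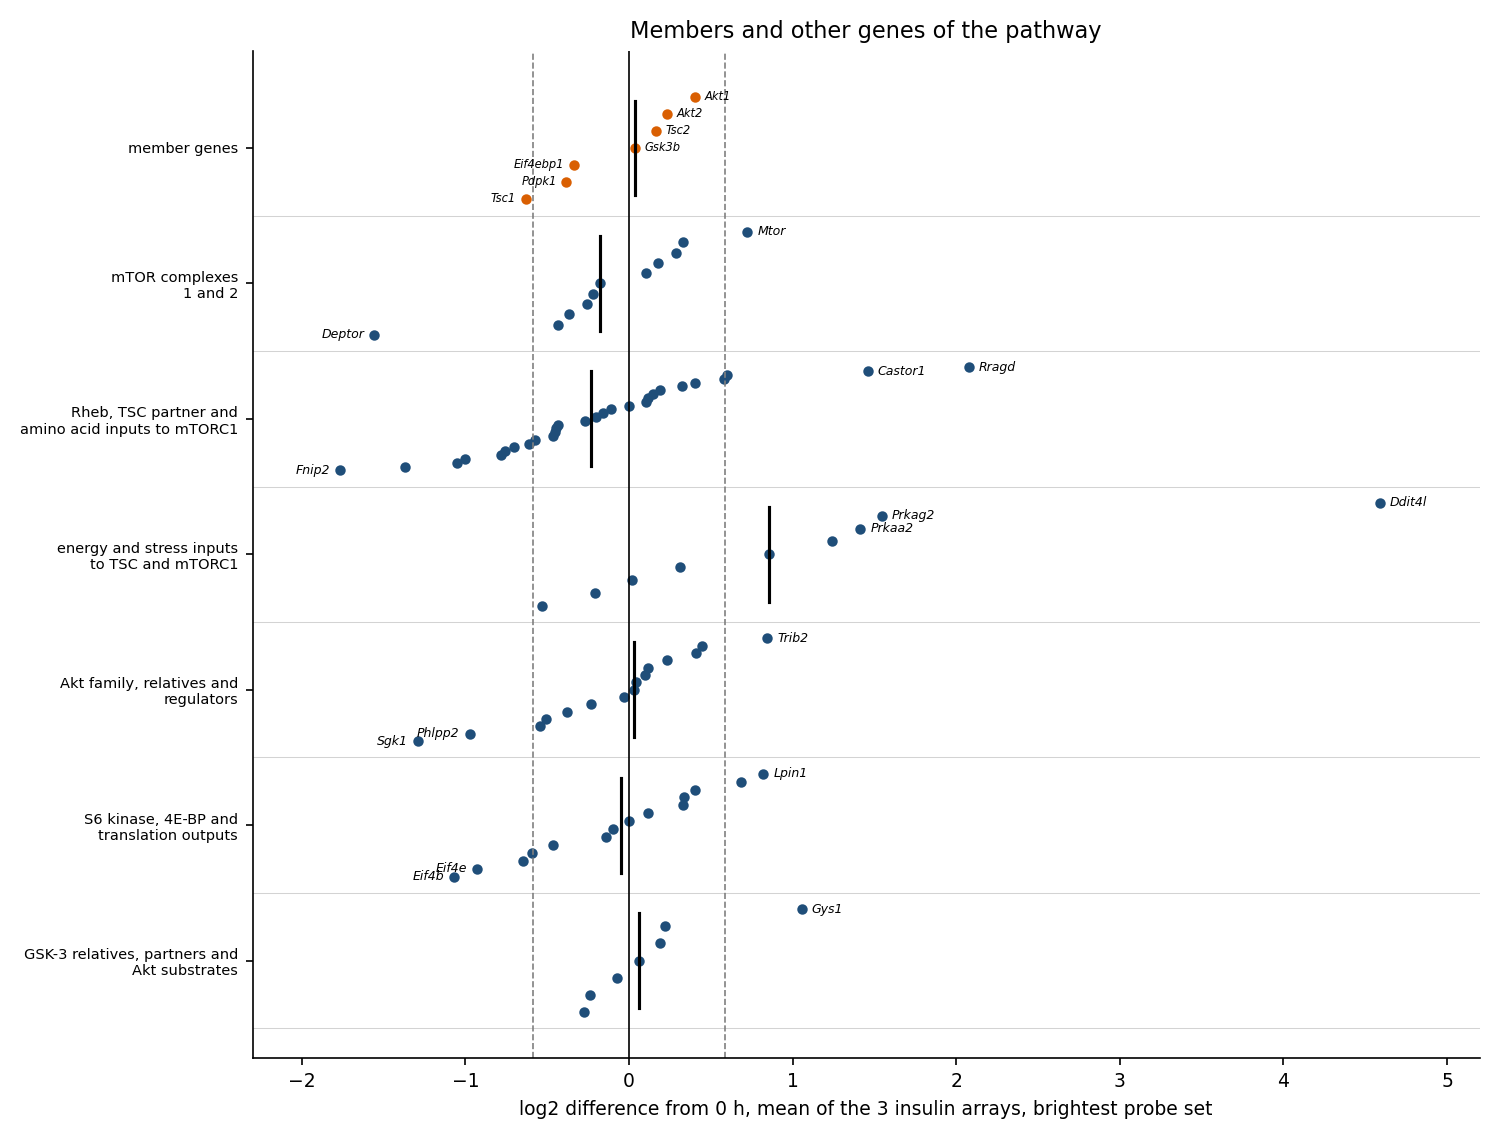
Log2 difference from 0 h, averaged over the 3 insulin arrays, for the brightest probe set of each of the 7 measured members (top) and of the 84 other pathway genes above the filter, by list, with a black bar at each median and dashed lines at 1.5-fold. The members lie between -0.63 and 0.41, and the energy and stress list has its median at 0.86. That median includes Ddit4l and Prkaa2, which were below the filter value at 0 h and passed the filter through the insulin arrays. Without them the middle gene of the list is Stk11, at 0.31.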

How the data were processed

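RNA of 4 cultures was labelled from an oligo-dT primer for Affymetrix arrays, per the labels' protocols. The authors deposited 1 intensity per probe set and array, and RMA is named in the submitters' processing notes. The labels name no software, version or build for it. Deposited intensities spanned 7.34 to 31292, which is too wide for a log scale, and log2 was therefore taken before any difference. Of 45037 probe sets that are not controls, the platform annotation gave 1 symbol for 34945, several for 932 and none here for 9160. Folds of dim probe sets can be understated in such values.

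Probe sets with 1 symbol and a mean intensity of at least 67.8 were counted, 19915 in all, and genes were represented by their brightest probe set, 11657 above the filter. Calls are folds between single arrays of at least 1.5 and not tests. Chromosomes came from a RefSeq gene table of GRCm38.p6. Named in the text are every member probe set, up to 3 called genes with the largest difference per pathway list, and the 3 genes nearest in pattern to each of the 2 members with the widest range over the arrays. Rheb, Rps6kb2, Gsk3a, Fnip1, Flcn, Prkab1, Prkab2, Prkag1, Prkaa1, Ddit4 and Stk11 were added after their values were seen. The members and lists were chosen with earlier results of these data known. The counting steps were checked on simulated data. Python 3.11.15, numpy 2.4.6, pandas 2.3.3 and matplotlib 3.10.9 were used. Alternatives were other fold thresholds and brightness filters, median centring, quantile normalization, an added offset, removal of chromosome medians and other probe set rules. Of the list symbols 7 were not analysed here, nor were the markers Runx2, Bglap, Spp1, Plin1 and Cfd.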

Additional observations from a re-analysis of the deposited data

Results flagged for a closer look

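Among the 18 member probe sets, 4 lay above the 0 h array at some insulin times and below it at others. Each time is 1 array, all share the 0 h array, and the difference between times was not tested. Akt1 1425711_a_at had log2 differences from 0 h of 0.23, 0.12 and -0.018 at 6, 12 and 24 h. Akt2 1421324_a_at had 0.01, -0.05 and -0.27. Gsk3b 1437001_at had -0.10, -0.50 and 0.046, and Gsk3b 1454958_at had -0.01, 0.0020 and 0.12. Of all named probe sets above the filter 86.5% lay on 1 side of the 0 h array at all 3 times, and 14 of the 18 member probe sets did.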

How the results depend on the processing

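No paired analysis was possible because each group has 1 array. The 1 member probe set at least 1.5-fold higher at all 3 times became 0 at 2-fold, 3 at a log2 difference of 0.32, and 0 with quantile normalization, with 32 added to intensities and with chromosome medians removed. The shares over all named probe sets were 8.88%, 24.1%, 14.7%, 13.9% and 14.1% in that order. The 1 that was lower became 0 at 2-fold, 4 at 0.32, and 0 with 32 added and with chromosome medians removed, where the log2 difference of Tsc1 was -0.58 and -0.62 in place of -0.63. For lower probe sets the shares over all were 4.37%, 21.4%, 9.65% and 10.7%. The 0 apart between insulin arrays became 2 at 0.32, against 15.6% of all named probe sets. The 12 other pathway genes higher became 6 of 84 at 2-fold, against 10.0% of all genes above the filter. The 12 lower became 5 at 2-fold, against 4.0%, and 24 at 0.32, against 20.1%. All other alternatives kept these counts within 1.5 times. Of 41 values of single member genes under the alternatives, 2 changed sign, both of Gsk3b, to -0.019 with quantile normalization and to -0.062 with chromosome medians removed, where the cause was not tested, and 6 moved by more than 0.153, the SD of log2 differences between the 24 h and 12 h arrays. No array could be left out in turn, since each is its whole group. With 1 array per group and dim signals near background, small differences cannot be resolved here.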

Other observations

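The genes whose brightest probe sets followed the 4 arrays most like those of 2 members were read by the root mean square distance in log2 intensity, each gene centred on its own mean over the 4 arrays. The 2 members were those whose brightest probe sets had the widest range over the arrays, Tsc1 and Eif4ebp1. Nearest to Tsc1 was Commd8, with intensities of 1024, 686, 647 and 663 at 0, 6, 12 and 24 h and a distance of 0.0063. Cep76 with 201, 132, 127 and 128 and Sqstm1, an autophagy receptor, with 7613, 5129, 4808 and 4954 came next. Nearest to Eif4ebp1 by its brightest probe set was Srebf2, a transcription factor of sterol synthesis, with 642, 459, 540.5 and 514 and a distance of 0.015, followed by Ift122 and Mafg. Among the insulin arrays that Eif4ebp1 probe set, 1434976_x_at, was highest at 12 h, as was 1417563_at, while 1417562_at was highest at 6 h. The likeness rests on 4 arrays and is a description.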
